A study of Caenorhabditis elegans with 2 samples.

Results

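The peaks described here are sites of ZTF-23, a zinc finger protein, in the stretch of DNA between a pair of Caenorhabditis elegans genes that are transcribed away from each other. A peak was taken when its summit lay between the starts of neighbouring protein-coding genes, the left gene on the minus strand and the right gene on the plus strand, with at most 2000 bp between the starts. Summits within 200 bp of a tRNA, snoRNA or snRNA gene were left out. Of 2213 nuclear peaks in the list that combines both replicates, 341 summits lay between such starts, 12 of these were left out for a small RNA gene, and 329 remained (14.9% of nuclear peaks, exact 95% interval 13.4% to 16.4%). They fell in 317 of the 2560 divergent gene pairs of the genome with starts at most that far apart (12.4%, 11.1% to 13.7%). That interval covers counting error only: the own list of replicate 1 alone gave 178 pairs (6.95%), that of replicate 2 alone 233 (9.1%), and peaks in both own lists 147 (5.74%).

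The chromatin came from strain RW12279, in which ztf-23 on chromosome I carries a CRISPR insertion of TY1, EGFP and 3xFLAG (allele st12279), and was precipitated with an antibody against GFP, although another label gives ztf-23 as the antibody. Embryos were obtained by bleaching and are labelled as midembryonic with an age of 1.5 hour, and their sonicated chromatin had fragments of 200 to 800 bp. The series is 1 group of 2 biological replicates, with no second condition and no control library analysed here, and these lists do not tell the read depth. Whole embryos were used, so the cell types that contribute to a peak cannot be told apart, and the labels do not say how many embryos were pooled.

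A divergent promoter region serves a pair of genes on opposite strands, and a factor that binds there may act on either gene, on both or on neither. The gap between such genes is often short in the compact nematode genome, where the annotated start of many genes is the site at which a spliced leader is joined to the RNA, so that transcription may begin further upstream. A ChIP-seq summit marks where immunoprecipitated fragments pile up highest and does not by itself assign the site to a gene.

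The DNA under the strongest of these summits is shown first, because most of these windows share a short pattern that the other members lacked. Each line gives the summit with 50 bp to either side, on the plus strand of WBcel235 (the same assembly as ce11), and capitals mark copies, on either strand, of GGGG and ACGC separated by 4 or 5 bases. The pattern was put together after these sequences were seen, so its presence in them is a description.
sec-61.B/trap-3, chrIV:2389094-2389194: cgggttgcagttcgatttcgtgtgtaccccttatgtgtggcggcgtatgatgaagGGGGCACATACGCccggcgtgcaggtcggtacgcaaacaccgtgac
ctf-4/eef-1G, chrV:10965642-10965742: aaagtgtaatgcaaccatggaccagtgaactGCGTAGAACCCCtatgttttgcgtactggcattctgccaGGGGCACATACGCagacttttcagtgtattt
drr-2/set-16, chrIII:13643690-13643790: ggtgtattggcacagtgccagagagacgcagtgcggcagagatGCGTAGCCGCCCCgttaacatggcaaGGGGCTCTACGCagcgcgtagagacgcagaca
icd-1/vps-32.1, chrII:6588979-6589079: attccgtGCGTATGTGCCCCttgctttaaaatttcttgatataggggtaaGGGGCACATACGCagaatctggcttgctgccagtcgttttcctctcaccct
ran-1/dkc-1, chrIII:10748151-10748251: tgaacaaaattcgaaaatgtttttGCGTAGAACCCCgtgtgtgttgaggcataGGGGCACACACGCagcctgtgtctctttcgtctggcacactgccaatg
larp-1/wip-1, chrIII:5018258-5018358: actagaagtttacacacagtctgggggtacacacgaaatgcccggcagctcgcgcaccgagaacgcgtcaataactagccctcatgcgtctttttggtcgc
K01G5.10/tasp-1, chrIII:10759195-10759295: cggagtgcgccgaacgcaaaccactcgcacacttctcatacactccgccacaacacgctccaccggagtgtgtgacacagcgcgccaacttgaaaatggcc
The printed windows of sec-61.B/trap-3, ctf-4/eef-1G, drr-2/set-16, icd-1/vps-32.1 and ran-1/dkc-1 hold a copy, and those of larp-1/wip-1 and K01G5.10/tasp-1 hold none. The ctf-4/eef-1G and icd-1/vps-32.1 windows share a run of 17 bases, aggggcacatacgcaga, of which 13 bases, ggggcacatacgc, also occur at sec-61.B/trap-3. The larp-1/wip-1 window shares a run of 16 bases with that of sec-61.B/trap-3 on the opposite strand, written there as atttcgtgtgtacccc. In the windows of ctf-4/eef-1G, drr-2/set-16, icd-1/vps-32.1 and ran-1/dkc-1 there are 2 copies each, always inverted, the left copy on the minus strand and the right copy on the plus strand. Their centres lie at -13 and 26 bp from the summit at eef-1G, at -1 and 25 bp at drr-2, at -37 and 6 bp at icd-1, and at -20 and 9 bp at dkc-1. In each case the ACGC ends point outwards, away from each other.

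Across all members the pattern was found in 6 of the 8 members with a signal above 3000, called strong here, and in 0 of the remaining 321. It occurred in 2 of 390 peaks at single-gene promoters, in 20 of all 2213 nuclear peaks, in the middle window of 3 of 2158 divergent pairs without a nuclear peak, and in 17 of 19973 windows of equal length just before protein-coding starts. Those middles and windows before starts each had a median GC content of 32.7%, against 52.0% in the strong members. They are thus not matched in base composition for a GC-rich pattern. Most copies in the genome lay away from peaks: of 748 copies on the nuclear chromosomes, 28 (3.74%) were centred within 50 bp of a nuclear summit. Neighbouring copies in the minus then plus order and up to 200 bp apart occurred 4 times on the nuclear chromosomes, and all 4 were centred within 50 bp of a summit. These are the 4 pairs printed above, in whose windows the pattern and this order were seen. Their place at summits was thus known beforehand and is no support for the order. The opposite order was found 15 times over the same distance, with 4 of those near a summit. The sole nuclear peak of comparable strength that is not a member, at eef-1A.2 (signal 4569), holds 1 copy. The other 13 nuclear peaks with a copy outside the members ranged in signal from 78.6 to 1825, and 2 of them, with signals of 1825 and 821, hold 2 copies. Copies thus also occurred in weak peaks, at 128, 126, 102, 84.1 and 78.6.

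Other words were found in members of ordinary strength. In a ranking of words of 8 bases in members against the middles of pairs without a peak, CGAGACCC and AAACGCGC came first, and 2 examples of each are printed on the plus strand of WBcel235 with the word, or its reverse complement, in capitals.
hsp-110/rpn-3, chrIII:8447117-8447217: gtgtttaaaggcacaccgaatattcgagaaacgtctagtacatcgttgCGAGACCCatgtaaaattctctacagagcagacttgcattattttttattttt
taf-7.2/elpc-2, chrIII:12673496-12673596: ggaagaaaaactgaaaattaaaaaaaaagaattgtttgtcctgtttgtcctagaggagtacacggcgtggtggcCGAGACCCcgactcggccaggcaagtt
tig-2/F39G3.3, chrV:4731548-4731648: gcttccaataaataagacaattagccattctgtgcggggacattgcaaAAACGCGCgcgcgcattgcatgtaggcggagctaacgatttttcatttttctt
Y39A1A.22/mrpl-12, chrIII:10707207-10707307: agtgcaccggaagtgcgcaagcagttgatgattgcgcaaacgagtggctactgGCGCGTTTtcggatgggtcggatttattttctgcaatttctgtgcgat
Words were ranked on members of one set of chromosomes and their shares then read on the members of IV, V and X. There CGAGACCC was present on either strand in 5.08% of 118 windows (interval 1.89% to 10.7%) and AAACGCGC in 8.47% (4.14% to 15%), against 1.02% and 0.88% of the 2158 middles of pairs without a peak. Words of 6 bases were led by GCGCAC, present in 19.5% of those 118 windows and 3.15% of the middles. The leading word of 8 bases depended on the window: with 25 bp to either side in place of 50 bp it was GCAAACAC, in 3.39% of the 118 windows. No single word was held by most members. Shares of these words in other nuclear peaks are not given here, so they are not shown to be particular to members. The middles also have a lower median GC content than member windows (32.7% against 48.5%).

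Base composition differed between the windows compared. The median GC content was 48.5% in member windows, 48.5% at single-gene promoter peaks and 49.5% over all nuclear peaks. It was 32.7% both in the middles of pairs without a peak and in the windows before protein-coding starts. Of the listed motifs, each read on either strand, CCGCCC, the core of the GC box, was in 14.9% of members, 8.04% of all nuclear peaks, 2.27% of the middles and 3.49% of the windows before protein-coding starts. Against the middles, the AT-rich motifs went the other way. TATAAAA, the TATA box, was in 0.912% of members and 6.44% of the middles, and TGATAA, the site of GATA factors, in 2.43% and 10.3%. Both were also rare over all nuclear peaks, at 1.54% and 2.98%. The CHR element TTTGAA was in 19.1% of members and 31.8% of the middles. Its share was 20.0% at single-gene promoter peaks and 13.8% over all nuclear peaks. The E-box CACGTG was about as frequent in members (1.82%) as in the middles (1.9%). GAGAGAGA and TTCNCGCC, the E2F site, were each in 2.43% of members. Their shares were 3.48% and 2.53% over all nuclear peaks, and 0.695% and 1.16% in the middles. TGACGTCA, the CRE, was in no member. The polymerase III box B, found in 4.61% of all nuclear peaks, was in no member window, in a set from which summits near tRNA genes had been removed by rule.

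The members ranged over more than 3 orders of magnitude in signal, the peak caller's value whose scale is not stated. The median was 163 (exact 95% interval of the median 153 to 174, quartiles 128 and 238), the lowest 3.69 and the highest 19378. The 5th percentile was 97.4. The lowest value is that of the weaker of 2 overlapping peaks at clic-1/srr-10, which share their replicate values (68.4 and 71.1). Members made up 8 of the 9 strongest nuclear peaks but 9 of the top 25. Of the top 100 they were 18 (18.0%, 11.0% to 26.9%), an interval that includes their 14.9% of all nuclear peaks. Of the top 500 they were 116 (23.2%, 19.6% to 27.2%), against 213 of the 1713 peaks below that rank (12.4%, 10.9% to 14.1%). Peaks called single-gene promoter peaks had a summit up to 500 bp upstream of a protein-coding start but not between divergent starts up to 2000 bp apart. Summits between divergent starts farther apart can thus be among them. The median of single-gene promoter peaks was 134 (127 to 143), and that of peaks within 200 bp of small RNA genes 220. The remaining 1150 nuclear peaks had a median of 115. The member median was thus 1.21 times that of single-gene promoter peaks and 1.32 times that of all other nuclear peaks (123). The second ratio did not hold among strong peaks: it was 0.921 within the 500 strongest and 0.999 within peaks found in both replicates' own lists. None of these differences was tested, since peaks of 1 experiment are not replicates.

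**Figure D1:**
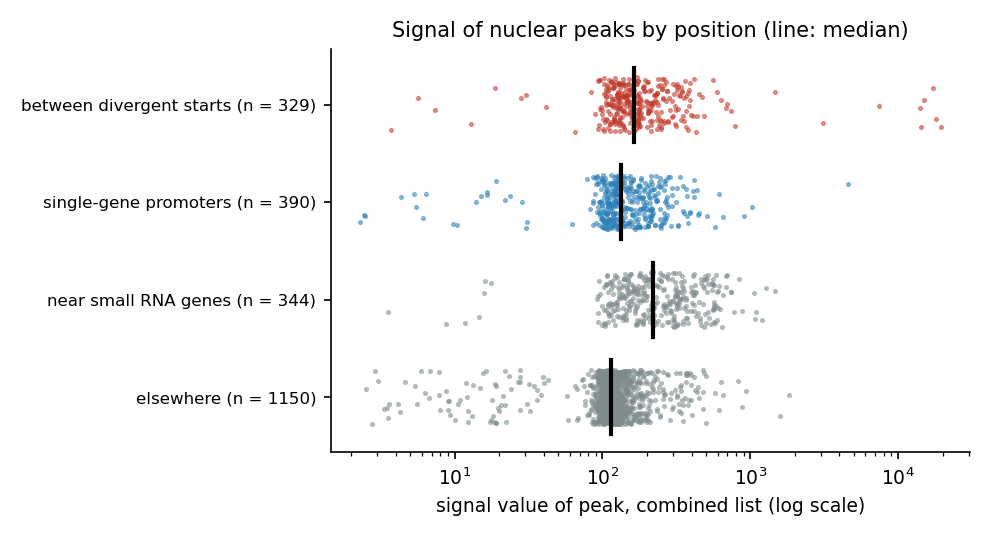
Signal of each nuclear peak in the combined list (horizontal axis, log scale, the peak caller's unit), with 1 point per peak spread vertically at random within its class and a black line at the median. Members have a median of 163 and include 8 peaks from 3088 to 19378, while peaks near small RNA genes have the highest median, 220.

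The strongest member lay between sec-61.B, the beta subunit of the Sec61 channel that carries proteins into the endoplasmic reticulum, and trap-3, a subunit of the complex attached to that channel. Its signal was 9129 in replicate 1 and 10262 in replicate 2. The summit was 469 bp from the sec-61.B start and 301 bp from the trap-3 start. Both genes of this pair belong to the same protein translocation machinery.

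Next came ctf-4/eef-1G (chrV:10965423-10965966), with 8496 in replicate 1 and 9477 in replicate 2. The gene eef-1G encodes the gamma subunit of translation elongation factor 1, and ctf-4 is named for a factor of the DNA replication fork in yeast. The starts are 180 bp apart, and the summit sat 27 bp from eef-1G and 153 bp from ctf-4, which makes this the strong member with the shortest region between starts.

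At drr-2/set-16 (chrIII:13643474-13644012) the values were 8170 and 9002, and the summit was nearly central, 170 bp from drr-2, a homologue of translation initiation factor eIF4H, and 176 bp from set-16, a histone H3 lysine methyltransferase of the MLL family. At icd-1/vps-32.1 (chrII:6588733-6589399) they were 7242 and 7736, with the summit 374 bp from icd-1, the beta subunit of the nascent polypeptide-associated complex, and 679 bp from vps-32.1, an ESCRT-III subunit. This peak, 667 bp wide, was the widest member. At rps-10/rpl-24.1, a pair of ribosomal protein genes, the replicates gave 6621 and 7651, and the summit was 355 bp from rps-10 and 255 bp from rpl-24.1.

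The other 3 strong members were all on chromosome III. At larp-1/wip-1 the values were 6570 and 7432, with the summit 658 bp from larp-1, an RNA-binding protein that acts on mRNAs of the translation machinery in mammals, and 331 bp from wip-1, an actin regulator. At ran-1/dkc-1 they were 3530 and 3905, the summit 473 bp from ran-1, the GTPase of nuclear transport, and 228 bp from dkc-1, the pseudouridine synthase of box H/ACA ribonucleoproteins. At K01G5.10/tasp-1 they were 1363 and 1710, with the summit 62 bp from tasp-1, a threonine aspartase. The ran-1/dkc-1 and K01G5.10/tasp-1 summits are 11044 bp apart, and another of the 15 strongest members, tbb-1/rib-2, lies 5512 bp from the former. All 8 were in both replicates' own lists, and replicate 2 exceeded replicate 1 in each, by 1.07 to 1.25 times. The summits were 27 to 374 bp from the nearer protein-coding start, and in 4 of the 8 a non-coding gene start was closer still.

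Below these the signal dropped to 1468 at K12H4.6/K12H4.5, with 647 in replicate 1 and 838 in replicate 2, and then to 792 at ecps-1/atx-2, the latter gene an ataxin-2 homologue. The member at ears-2/uncp-18 (744; 348 and 409) lay in one of the shortest regions, 92 bp between the starts, with the summit 19 bp from ears-2, a glutamyl-tRNA synthetase. The rest of the 15 strongest were rpl-15/K11H12.8 (698), mlcd-1/idhg-1 (689), tbb-1/rib-2 (638) and nrde-2/atad-3 (593), where tbb-1 encodes a beta tubulin, idhg-1 an isocitrate dehydrogenase subunit and nrde-2 a factor of nuclear RNA interference. The limit of 3000 for strong members was set after the values were seen, and similar falls, from 7410 to 3088 and from 1468 to 792, lie on either side of it.

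Replicates ranked the members similarly. The median signal was 72.7 in replicate 1 and 89.7 in replicate 2, each over the 327 members readable there. For the 325 members readable in both, Spearman's rho was 0.777 (description over peaks of the same libraries) against 0.66 for 2189 of all nuclear peaks. By class it was 0.916 near small RNA genes, 0.7 at single-gene promoter peaks and 0.331 elsewhere. The ratio of replicate 2 to replicate 1 had a median of 1.18, the same as over all nuclear peaks, and 5th and 95th percentiles of 0.794 and 1.84. The largest ratios were at T23F6.3/rbd-1 (41.3 and 118, ratio 2.86), cogc-2/klp-18 (2.45), col-71/Y49F6B.2 (2.3), gtbp-1/K08F4.3 (2.13) and mcrs-1/atp-1 (2.1). The smallest were at lin-36/F44B9.2 (84.9 and 47.2, ratio 0.556), F57C2.5/spat-1 (0.675), calu-2/F08B6.1 (0.678), eif-3.D/R08D7.4 (0.685) and W02H5.16/W02H5.19 (0.702). The combined signals of these 10 ran from 126 to 179, near the member median of 163.

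Each replicate also has its own thresholded list. Of the members, 151 overlapped a peak in both (45.9%, 40.4% to 51.4%), where the figure over all nuclear peaks was 30.7%. It was 35.1% at single-gene promoter peaks, 66.3% near small RNA genes and 14.2% elsewhere. A further 69 members were in the list of replicate 2 alone, 22 in that of replicate 1 alone, and 87 in neither (26.4%), so these last rest on the combined list. The other combined list held 303 of the members (92.1%). Of the members, 264 (80.2%) had a width of 344 bp, the value shared by 87.5% of nuclear peaks.

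**Figure D2:**
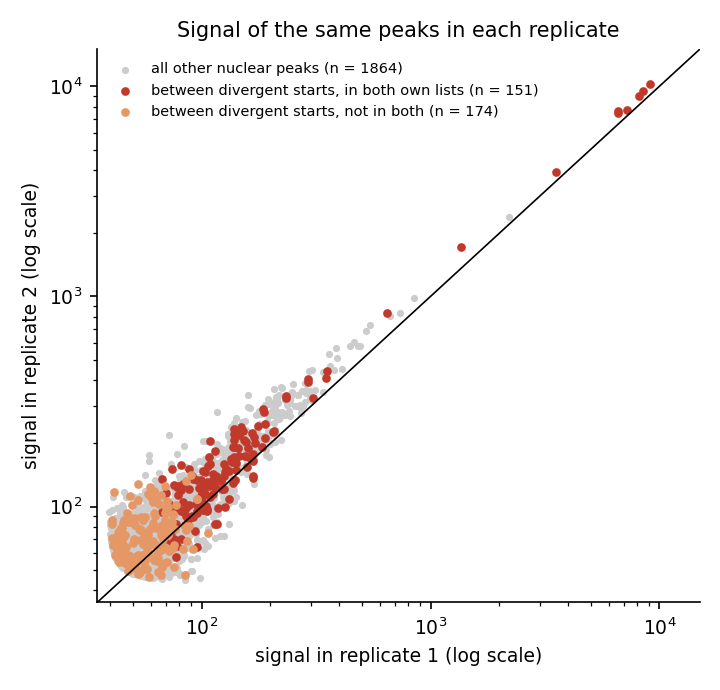
Signal of the same peaks in replicate 1 (horizontal) and replicate 2 (vertical), both log scale in the peak caller's unit, each point a peak and the line marking equal values. The 8 strong members stand apart near the line, and members not in both own lists (orange), which may be in 1 of them, gather at the low end.

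Summits were described by their distance to the nearer start, which cannot exceed the midpoint of the region, so that short regions limit it. This distance to the nearer start had a median of 163 bp (exact 95% interval of the median 148 to 171, quartiles 85 and 231), and that to the farther start a median of 442 bp. In 216 members (65.7%) the nearer start was within 200 bp, in 281 (85.4%) within 300 bp and in 323 (98.2%) within 500 bp. Within 50 bp of a start there were 47 summits (14.3%). Both starts were within 500 bp of the summit in 190 members (57.8%), and both within 300 bp in 108 (32.8%). Neither strand was favoured by much, with 173 of 329 summits (52.6%, 47.0% to 58.1%) nearer to the plus-strand gene.

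Relative position, from 0 at a start to 0.5 halfway between both, had a median of 0.271. Its 5 equal classes from the start to the middle held 15.2%, 21%, 19.5%, 22.5% and 21.9% of members, so that over the whole set the summits were spread nearly evenly. This spread is a mixture over regions of different length. With over 250 and up to 500 bp between starts, 54 of 95 summits (56.8%, 46.3% to 67.0%) lay in the middle part of the region, at a relative position above 0.333. With over 1000 bp it was 11 of 88 (12.5%, 6.41% to 21.3%), and the median distance to the nearer start was 214 bp. With over 500 and up to 1000 bp it was 39.0%, at a median of 198 bp, and with up to 250 bp it was 7 of 28, at a median of 46.5 bp. Above 250 bp, then, the distance to the nearer start grew less than the space between the starts.

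**Figure D3:**
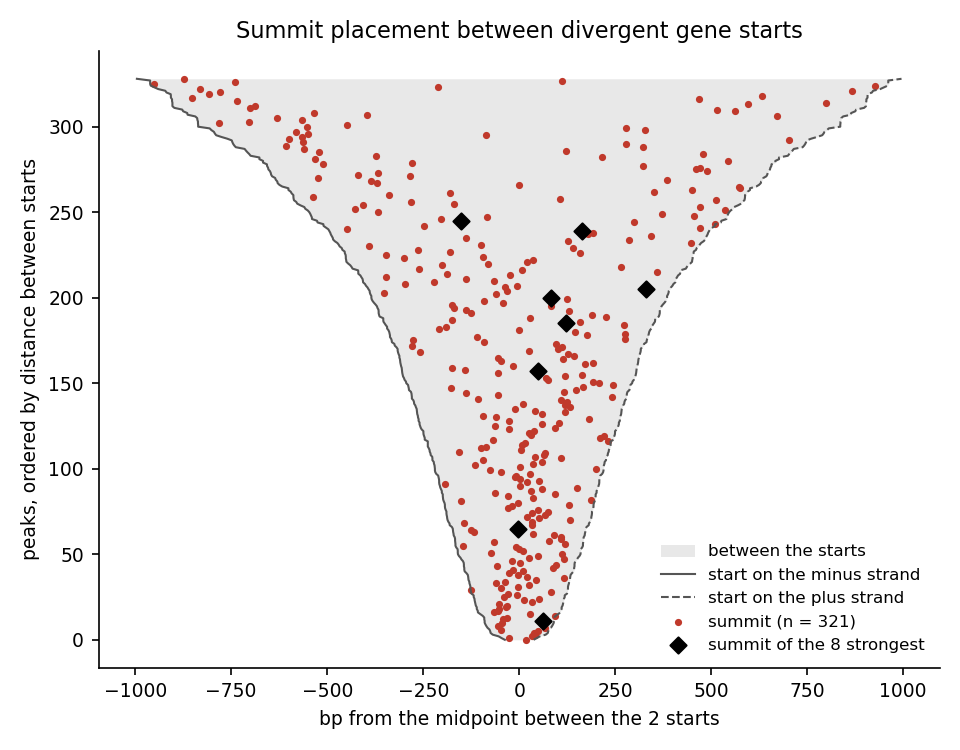
Position of each of the 329 summits, in bp from the midpoint between the starts (horizontal), with members ordered from the shortest to the longest region (vertical) and grey shading between the starts. In regions of over 250 to 500 bp 56.8% of summits lie in the middle part, and in regions of over 1000 bp 12.5% do; black diamonds mark the 8 strongest.

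The share of divergent pairs with a member also varied with length. In classes that do not overlap, it was 7.51% of 373 pairs with up to 250 bp between starts (interval 5.05% to 10.7%), 17.3% of 544 with up to 500 bp (14.2% to 20.7%), 13.6% of 828 with up to 1000 bp (11.4% to 16.2%) and 10.1% of 815 with up to 2000 bp (8.08% to 12.3%). Per kb of sequence between starts the members numbered 0.459, 0.474, 0.197 and 0.0749 in the same order. Median signals were 149, 173, 177 and 147, and the shares in both own lists 25%, 51.6%, 56.8% and 31.8%. The shortest region with a member was madf-8/gsr-1, 75 bp between the starts and a signal of 162 (75.1 in replicate 1 and 92.1 in replicate 2), where gsr-1 encodes glutathione reductase.

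Chromosomes differed as well. On chromosome III 20.3% of pairs held a member (16.4% to 24.6%) and on I 18.9% (15.3% to 23.0%). The shares were 10.7% on IV, 9.87% on II, 8.43% on X and 7.54% on V. On X, 18 members made up 4.33% of the 416 nuclear peaks there, against 19.8% on I and on III. Median signals by chromosome ran from 138 on X to 173 on III.

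**Figure D4:**
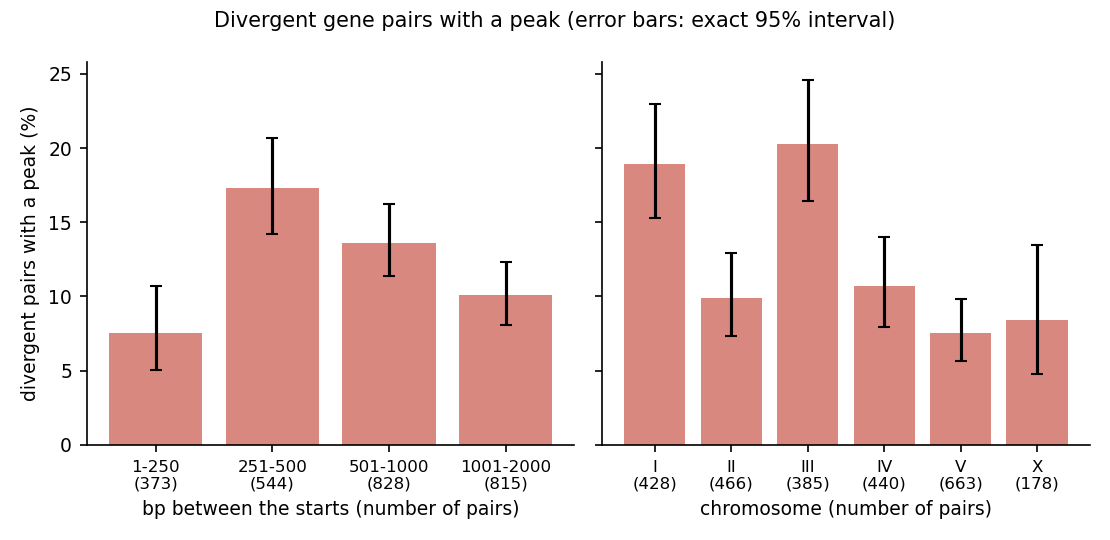
Share of divergent gene pairs that hold at least 1 member, by bp between the starts (left) and by chromosome (right), with exact 95% intervals as error bars and the number of pairs in brackets. The class of over 250 to 500 bp reaches 17.3%, and chromosomes III and I reach 20.3% and 18.9%.

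Most pairs held 1 member, but 10 held 2 and 1 held 3. Between ecps-1 and atx-2 the summits were 545 bp apart, one of 325 at 232 bp from ecps-1 (139 in replicate 1, 207 in replicate 2) and one of 792 at 61 bp from atx-2 (351 and 440), so each start had a summit of its own. The pair nrde-2/atad-3 had 284 and 593 with summits 745 bp apart, and W02D3.4/mec-6, mec-6 being a subunit of the touch-sensing channel, had 202 and 249 with summits 1203 bp apart. At immt-1/T14G11.1, immt-1 being a mitofilin homologue, there were signals of 152, 103 and 30.4. The peaks of 103 and 30.4 have the same replicate values (51.4 in replicate 1 and 51.1 in replicate 2), so these are not separate. At cdk-7/Y39G10AR.11 the signals were 155 and 108, cdk-7 being a kinase of the cell cycle and of general transcription. In the remaining 6 pairs the summits were 199 to 214 bp apart, the second signal was 3.69 to 65.6, and both peaks overlapped the same region of each replicate, so their replicate values are not separate. In all, 18 members overlapped another nuclear peak.

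The annotated starts are not the only ones in these regions. Another gene start lay between the pair in 50 members (15.2%), an ncRNA gene in 46 of these, and in 42 (12.8%) a non-coding start was closer to the summit than both protein-coding starts. The summit was inside a protein-coding gene body in 5 members.

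At the limits of the definition, the longest regions inside were scyl-1/lap-2 with 1991 bp (signal 148), daf-19/gpd-4 with 1922 bp (248) and cdk-7/Y39G10AR.11, also 1922 bp (108). Just outside were elc-1/Y82E9BR.3 with 2006 bp (115), T07F10.3/bus-19 with 2008 bp (291) and C07A12.7/pdi-2 with 2011 bp (194). The members closest to a small RNA gene were ska-3/rps-12 at 246 bp (364), rpl-7A/set-21 at 361 bp (351) and rps-10/rpl-24.1 at 389 bp. Among those left out, let-70/klc-1 was at 170 bp (168), tmem-107/rps-26 at 130 bp (249) and chst-1/C41C4.9 at 40 bp (451).

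Ribosomal protein, chaperone and translation factor genes flanked a member more often than the genes of divergent pairs at large. Over all 5120 genes in divergent pairs, 634 flanked a member (12.4%, 11.5% to 13.3%). Of 49 ribosomal protein genes in such pairs, 29 did (59.2%, 44.2% to 73.0%), as did 18 of 32 chaperone genes (56.2%, 37.7% to 73.6%) and 8 of 22 translation factor genes (36.4%, 17.2% to 59.3%). All lists are groups of gene symbols, and these shares were not tested. Such genes were beside a minority of members: 44 members (13.4%) flanked a ribosomal, mitochondrial ribosomal, translation factor or synthetase gene. In the ribosomal list only rps-10/rpl-24.1 was among the strong members, and the median signal of the members at these genes was 213.

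Next to rps-10/rpl-24.1, the highest ribosomal members were rpl-15/K11H12.8 (291 in replicate 1, 407 in replicate 2), rpl-20/Y17G9B.5 (187 and 282) and rpl-4/B0041.8 (185 and 291). The lowest apart from a second, overlapping summit at rpl-1 was rpl-36.A/nuo-1 (45.5 and 60.8), which pairs a ribosomal gene with a subunit of respiratory complex I. The ribosomal gene was the nearer one of its pair for 13 of the 29 genes, against 325 of 634 flanking genes over all members, and in 3 pairs both genes are ribosomal. The median distance from the summit to a ribosomal start was 288 bp, against 244 bp from a summit to a flanking start over all members. Pairs made of ribosomal protein genes alone numbered 3, and each had a member: rps-10/rpl-24.1, rps-14/rpl-36 (79.1 and 113) and rpl-39/rps-30 (72.1 and 61.4).

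Chaperone members were led by supr-1/dnj-28 (148 and 240), where dnj-28 encodes a DnaJ protein, and included 5 subunits of the cytosolic chaperonin, cct-1, cct-2, cct-5, cct-7 and cct-8, the last with the highest signal of these (144 and 223). Of these subunit genes, only cct-2 was the nearer gene of its pair. Over the whole list, the chaperone gene was the nearer one for 7 of the 18 genes. The mitochondrial chaperones hsp-60 (138 and 172) and hsp-6 (43.5 and 76.8) also flanked members. The heat-shock pair hsp-16.2/hsp-16.41 had a weak one (44.3 and 58.8) and was 1 of 3 pairs made of chaperone genes alone. Translation factors besides eef-1G were led by iff-2/F54C9.14 (139 and 221), where iff-2 encodes eIF5A, and included eef-1A.1, eef-2, eif-1.A, eif-3.D, eif-3.E and erfa-3. Apart from a second summit at hsp-3 (65.6), the members at chaperone genes had combined signals from 106 to 390, far below the strong group.

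**Figure D5:**
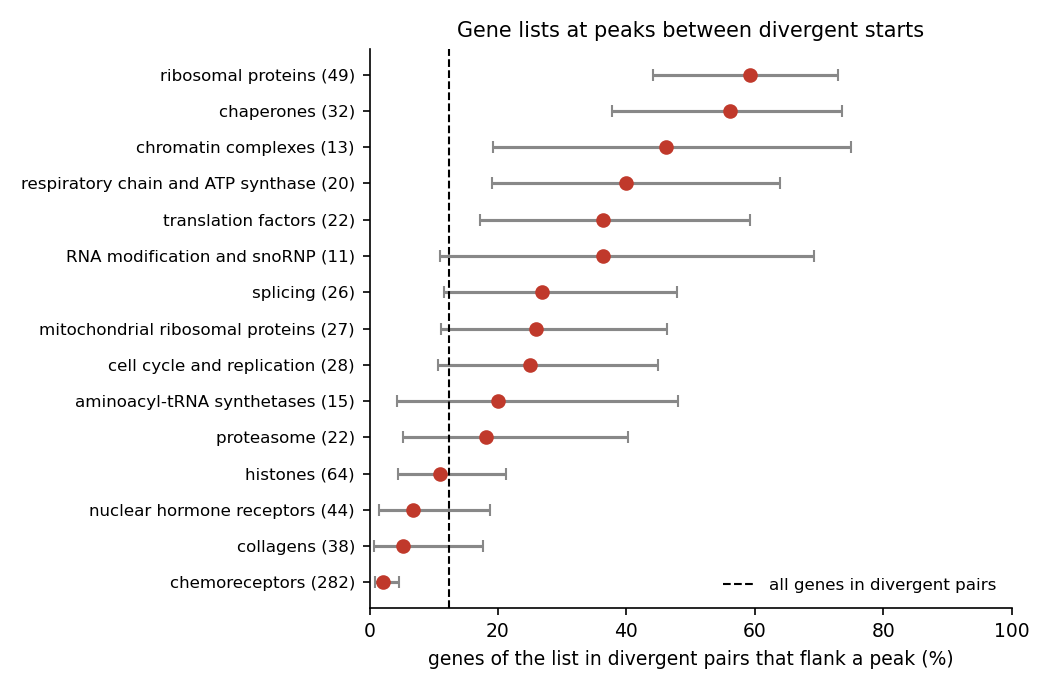
Percent of a list's genes in divergent pairs that flank a member, with exact 95% intervals, for lists with at least 10 genes in such pairs (number in brackets), and the value over all such genes as a dashed line at 12.4%. Ribosomal protein and chaperone genes lie highest, at 59.2% and 56.2%, and chemoreceptor genes lowest, at 2.13%.

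The shares of the mitochondrial lists had wide intervals that overlap. Of 20 genes of the respiratory chain and ATP synthase 8 flanked a member (40.0%, 19.1% to 63.9%), led by tba-1/cox-5B (109 and 205), whose summit was 14 bp from cox-5B, a cytochrome oxidase subunit. Of 27 mitochondrial ribosomal protein genes 7 did (25.9%, 11.1% to 46.3%), led by Y39A1A.22/mrpl-12 (137 and 193). Of 3 import genes in divergent pairs 1 did (33.3%, 0.84% to 90.6%), tomm-20 (141 and 160). Of 15 aminoacyl-tRNA synthetase genes 3 did (20.0%), led by ears-2.

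Among nuclear functions, 6 of 13 genes of the chromatin list flanked a member (46.2%, 19.2% to 74.9%). The list was led by vps-51/lin-35 (145 and 191), lin-35 being the retinoblastoma homologue, and lin-9, lin-53 and lin-54, which encode other subunits of the DREAM complex, and efl-1, an E2F factor, were there too. Of 8 SET-domain genes 4 did, led by set-16. Each of these was the farther gene of its pair, at a median of 365 bp from the summit. Of 11 genes of RNA modification and snoRNPs 4 did (36.4%), led by dkc-1 and including fib-1, the fibrillarin gene (77.2 and 98.7). Splicing had 7 of 26 (26.9%), led by snx-13/snr-1 (176 and 241) and including the pair rsp-2/rsp-1 of SR protein genes (81.2 and 95.2). Cell cycle and replication had 7 of 28 (25%), led by Y47D3A.1/pola-1 (87.8 and 151), a DNA polymerase alpha subunit gene. The intervals of the splicing, cell cycle, mitochondrial ribosomal, synthetase, import and RNA modification lists include the 12.4% over all genes.

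The remaining lists had lower shares or few genes in divergent pairs. Histone genes, which are often arranged as divergent pairs, flanked members in 7 of 64 cases (10.9%, 4.51% to 21.2%), and 3 of the 31 pairs made of histone genes alone had one: his-67/his-68 (74.1 and 151), his-6/his-5 (77.0 and 102) and his-61/his-62 (42.0 and 59.1). Proteasome genes had 4 of 22 (18.2%, 5.19% to 40.3%), led by F49C12.9/rpn-7 (95.7 and 135). Nuclear hormone receptor genes had 3 of 44 (6.82%), led by nhr-142, and collagens 2 of 38 (5.26%), where col-38 shares its region with rpl-5. Chemoreceptor genes, expressed in sensory neurons, had 6 of 282 (2.13%, 0.785% to 4.57%), led by W01D2.3/srt-11 (166 and 224), and none of the 53 pairs made of chemoreceptor genes alone had a member. No gene of the RNA polymerase list did, of 9 in divergent pairs. The small lists had tbb-1 and tba-1 (2 of 4 tubulin and actin genes), ubc-6 and ubq-2 (2 of 9 ubiquitin and E2 genes) and vha-1 (1 of 7 vacuolar ATPase genes). In all, 116 members (35.3%) flanked a gene of any of the 21 lists.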

How the data were processed

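ChIP-seq of GFP-tagged ZTF-23 in 2 biological replicates was available as lists of peaks (build ce11, per the labels). The signal value and the score of each peak were deposited by the authors, and the scale of the signal is not stated. The lowest score in the combined conservative list, which held 2234 peaks, was 830. The lists were thresholded by the irreproducible discovery rate, per the labels' file descriptions. Aligner, peak caller and sequencing depth are not given in the sources used here.

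Genes came from Ensembl release 115 on WBcel235, and sequence from the RefSeq FASTA of the same assembly, and every peak ended within its chromosome. The first base of a gene was its start. Single-replicate signals are those of the strongest region of that replicate's ranked list that overlaps the peak by at least 1 bp. Words and motifs were read on either strand up to 50 bp from each summit, and the comparison windows, of equal length, were the middles of divergent pairs without a nuclear peak and the bases just before each protein-coding start. Intervals are exact at 95%, Clopper-Pearson for shares and binomial order statistics for medians, and cover counting error or the spread over peaks only. With 1 group, nothing was tested. The placement steps were tested on simulated data, with Python 3.11.15, pandas 2.3.3, numpy 2.4.6, SciPy 1.17.1 and matplotlib 3.10.9.

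The peaks and gene lists were chosen with earlier results of these data known. The genes named were those of the 15 strongest members, of the 5 pairs with the highest summed signal among pairs with several members, of pairs with both genes in one list, of the strongest member of each list, at the limits of the definition, and of the 5 largest and 5 smallest replicate ratios. Other names, the G-run pattern and the example windows at weaker members were chosen after values were seen. The chemoreceptor list was narrowed to receptor families after its first pattern was seen to take in other genes. With that pattern it was 8 of 300 (2.67%).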

Additional observations from a re-analysis of the deposited data

How the results depend on the processing

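Of the alternatives tried, most left a share, median or ratio within its interval, or a count within 1.5-fold of its main value. Limiting the peaks to the 500 strongest gave 116 members in 113 pairs (4.41% of pairs), a median distance to the nearer start of 182 bp, a relative position of 0.312, a signal ratio of 1.13 to single-gene promoter peaks and of 0.921 to all other nuclear peaks, and 98.3% of members in both own lists. Limiting all peaks to those in both own lists, an alternative added after seeing the data, gave 151 members in 147 pairs (5.74%), a relative position of 0.312 and a signal ratio of 0.999 to all other nuclear peaks. With the first coding base as the start, the distance was 192 bp and the relative position 0.327, and with starts up to 1000 bp apart the relative position was 0.317. Words of 6 bases gave a leading share of 19.5% in place of 5.08%, since shorter words are more frequent. Using the own list of a single replicate gave 192 to 245 members in 178 to 233 pairs (6.95% to 9.1%), 192 of them without replicate 2. The distances were then 160 to 166 bp, the relative positions 0.295 to 0.303, the ratios to single-gene promoter peaks 1.09 in each list, and those to all other nuclear peaks 1.08 to 1.1. The causes of these shifts were not tested. Keeping the strongest member of each pair, or leaving out summits inside coding genes, was also added after seeing the data. Neither moved a share, median or ratio outside its interval or a count beyond 1.5-fold. No paired analysis was possible because there was only 1 group. Depth per replicate is unknown, so a pair without a peak cannot be called unbound.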
